A study of Mus musculus with 12 samples.

Results

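The genes described here are the homeobox and craniofacial patterning genes of the mouse, chosen by symbol: the numbered members of the Hoxa to Hoxd, Dlx, Msx, Alx, Lhx, Pitx, Prrx, Meis, Pbx, Irx, Barx, Nkx, Pax, Tshz, Satb and sine oculis-related families, with Shox2, Hhex, Emx2 and Gsc. The rule takes 117 of the 22063 genes listed. It reads symbols and no expression value, but was set with earlier results of these data known. RNA was sequenced from mesenchymal cells of the mandibular condyle, the bone end that forms the jaw joint, taken soon after birth from mice carrying floxed Plagl1 alleles (Plagl1 fl/fl). All 4 groups came from such cells and all were infected with adenovirus at a multiplicity of infection of 100, with virus expressing EGFP alone or Cre recombinase with EGFP. Groups AdV-EGFP and AdV-CRE-EGFP are cells taken on day 0. Their counterparts, OI-AdV-EGFP with EGFP virus and OI-AdV-CRE-EGFP with Cre virus, were taken after 4 days of osteogenic induction with 5 mM β-glycerophosphate, 50 µg/ml ascorbic acid and 100 nM dexamethasone. Each group had 3 libraries, with 15316983 to 18052019 rounded counts per library. No library was kept for 4 days without the osteogenic medium, so induction and 4 more days in culture cannot be told apart. Nothing in the labels ties the 3 libraries of a group to different cultures or mice, so the p-values here cover library-to-library spread that could be technical.

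Plagl1, the gene that Cre was meant to delete, was not lower in the libraries labelled as given Cre. It stood at 401 ± 22.0 CPM (counts scaled to library size by TMM; SD, n = 3) in AdV-EGFP and at 589 ± 6.46 CPM in AdV-CRE-EGFP libraries, a log2 fold change of 0.55 (adjusted p = 1.8e-10, edgeR). After induction it stood at 391 ± 11.2 and 385 ± 18 CPM, a log2 fold change of -0.03 (adjusted p = 0.67, edgeR). The sources used here do not say which part of the gene is floxed, so counts over the whole gene do not test the deletion. All directions below are those of the libraries as labelled. Of the markers of the labelled mesenchymal identity, 10 of 10 were detected in every group, with a summed level of 14899 to 22945 CPM per library. The collagen genes Col1a1, Col1a2 and Col3a1 made most of this sum, and Prrx1 is also a member. All 8 macrophage and osteoclast markers were detected too, at a summed 402 to 1378 CPM, so detection alone does not set the cell type. In bulk RNA, fewer cells of a type and less RNA per cell cannot be told apart, and this holds for each result below.

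Homeobox genes encode transcription factors that bind DNA through the homeodomain, and their combined expression gives cells a position along the body and within an organ. The lower jaw is built by cranial neural crest cells of the first pharyngeal arch, which, unlike neural crest of the more posterior arches, normally form a skeleton without Hox expression. Within the arch, nested expression of the Dlx genes, induced in the lower jaw by endothelin signalling, separates upper from lower jaw, while Msx, Alx, Prrx, Barx, Pitx, Lhx and Gsc genes mark regions of the arch mesenchyme and its skeletal products.

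The homeodomain can be read in the coding sequences of these genes, and the stretches below are shown because they tell apart the DNA-contacting helix of the genes the results turn on. In the third helix of the homeodomain, 1 residue after a conserved tryptophan and phenylalanine sets much of the base preference of the protein. An in-frame search of the annotated coding sequences for TGGTT, 4 free letters and AA, read on the coding strand, found a match in 105 of 117 members (89.7%), against 975 of 21770 protein-coding genes (4.48%). The match is a description of letters and does not by itself identify a homeobox. The residue is glutamine in 78 members, lysine in 10, alanine in 6, glycine in 4, serine in 4 and isoleucine in 3. The stretches run from the codon of the tryptophan and are given 5′ to 3′ on the coding strand of GRCm39, with the codon of that residue in capitals.
Prrx1: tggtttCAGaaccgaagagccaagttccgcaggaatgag
Msx1: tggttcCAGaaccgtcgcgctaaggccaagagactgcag
Msx2: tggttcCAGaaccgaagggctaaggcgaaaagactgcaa
Dlx3: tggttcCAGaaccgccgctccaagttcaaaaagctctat
Dlx5: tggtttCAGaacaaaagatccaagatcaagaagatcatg
Nkx6-1: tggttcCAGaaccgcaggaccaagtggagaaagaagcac
Alx4: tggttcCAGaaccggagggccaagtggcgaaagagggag
Hoxd8: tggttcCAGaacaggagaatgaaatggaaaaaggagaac
Gsc: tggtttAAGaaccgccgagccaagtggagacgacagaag
Meis2: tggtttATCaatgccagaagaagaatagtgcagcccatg
Irx1: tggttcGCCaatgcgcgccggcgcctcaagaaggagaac
Pax3: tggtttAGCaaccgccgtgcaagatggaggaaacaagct
Barx1, Pax1, Pax9, Satb1 and the Tshz genes were among the members with no match. A missing match does not by itself mean that a homeobox is absent. The homeodomain of Pax9 and Pax1 is absent in vertebrates, and these proteins bind DNA through the paired domain instead.

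The positions of these stretches follow in the same build. They are Prrx1 chr1:163085470-163085508 (-, exon 3 of 4), Msx1 chr5:37978821-37978859 (-, exon 2 of 2), Msx2 chr13:53622406-53622444 (-, exon 2 of 2), Dlx3 chr11:95014244-95014282 (+, exon 3 of 3), Dlx5 chr6:6878441-6878479 (-, exon 3 of 3), Nkx6-1 chr5:101807493-101807531 (-, exon 3 of 3) and Alx4 chr2:93505644-93505682 (+, exon 3 of 4). The others are Hoxd8 chr2:74537010-74537048 (+, exon 2 of 2), Gsc chr12:104437864-104437902 (-, exon 3 of 3), Irx1 chr13:72108114-72108152 (-, exon 2 of 4) and Pax3 chr1:78099352-78099390 (-, exon 6 of 9). The Meis2 stretch lies on chromosome 2 and crosses an exon junction. Among the shown glutamine genes are Prrx1, Msx1, Msx2, Dlx3, Dlx5, Nkx6-1, Alx4 and Hoxd8, while Gsc carries lysine, Meis2 isoleucine, Irx1 alanine and Pax3 serine. The letters TAATTA, a core bound by many homeodomains of the glutamine class and the same on both strands, were found in 4 of 90 upstream windows of 250 bases from RefSeq (GRCm38.p6, 76 members matched), or 4.44%, against 4.84% of 32851 such windows of all genes.

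In these cells 50 of the 117 members passed the count filter and were tested, and 14 had a mean FPKM (fragments scaled to transcript length and library size, the level used here between genes) of at least 10 over the 12 libraries. The other 67 members had at most 12 counts in any library, and 9 of them had no count in any. Prrx1, which with Prrx2 supports growth of limb and jaw mesenchyme, was by far the most abundant member per length. Its FPKM was 218 ± 3.87 in AdV-EGFP, 198 ± 1.40 in AdV-CRE-EGFP, 175 ± 1.42 in OI-AdV-EGFP and 147 ± 2.91 in OI-AdV-CRE-EGFP (SD, n = 3). These 4 ranges did not overlap, and the level stepped down from the first to the last group. Prrx2 ranked next, with group means of 32.3 to 65.6 FPKM.

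The next ranks were held by genes that mark the first arch and its skeleton. Barx1, expressed in the proximal jaw and stomach mesenchyme, had group means of 28.4 to 44.0 FPKM. Pitx1, which patterns the mandible and the hindlimb, had group means of 25.2 to 31.2 FPKM. Shox2, needed for the jaw joint and proximal limb, had group means of 16 to 20.9 FPKM. Dlx5 and Dlx6, the lower-jaw members of the Dlx code, had group means of 15.6 to 16.8 and of 12.1 to 15.1 FPKM. The 15 members of highest FPKM also held Pbx2, Pbx3, Meis2 and Meis3, cofactors of other homeodomain proteins, and Msx1 and Alx4. On the CPM scale, which does not divide by length, 13 of these 15 were again among the 15 highest.

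**Figure D1:**
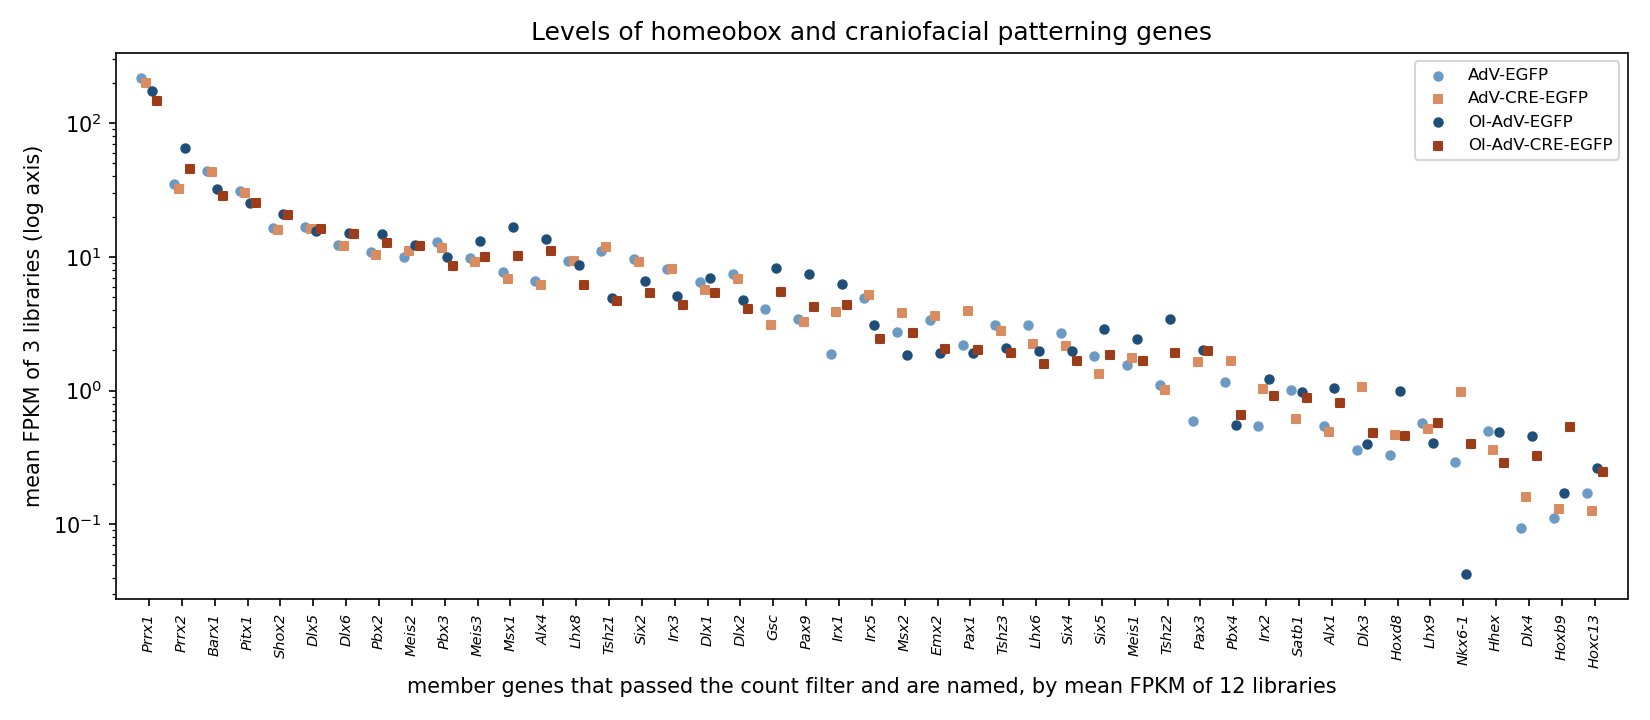
Mean FPKM of 3 libraries (log axis) of the members that passed the count filter and are named here, ordered by mean FPKM of the 12 libraries, with circles for AdV-EGFP and squares for AdV-CRE-EGFP groups and darker colours after induction. Prrx1 stands alone at the top with group means of 147 to 218 FPKM, and Hoxd8, Hoxb9, Hoxc13 and Nkx6-1 lie below 1 FPKM.

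Families differed in how many of their members were tested. Of 14 Nkx genes 1 was tested, with no Nkx gene above 56 counts in a library, of 9 Pax genes 3, of 8 Lhx genes 3, of 6 Irx genes 4 and of 3 Msx genes 2. All 6 Dlx genes, 3 Meis genes, 3 Tshz genes and 2 Prrx genes were tested. Nkx3-2, a mark of the primary jaw joint, had at most 12 counts in any library, and Msx3, which is confined to the neural tube in mammals, at most 3. Of the 50 tested members, 42 lay over the filter of 0.606 CPM in every library of all 4 groups. Hoxb9 and Pbx4 lay over it in every library of 1 group only, and Hhex and Hoxc13 of none.

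Hox genes were near the limit of detection at every stage. Of 39 Hox members 4 passed the filter, among them Hoxd8, Hoxb9 and Hoxc13. All 39 Hox genes together gave 54 to 60 counts per library in AdV-EGFP, 63 to 67 in AdV-CRE-EGFP, 121 to 141 in OI-AdV-EGFP and 105 to 131 in OI-AdV-CRE-EGFP. The summed level was thus 3.64 ± 0.276, 4.12 ± 0.207, 7.39 ± 0.712 and 7.22 ± 0.719 CPM (SD, n = 3). The induced libraries lay above all day 0 libraries, and the groups with and without Cre overlapped after induction. No test was run on this sum.

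**Figure D2:**
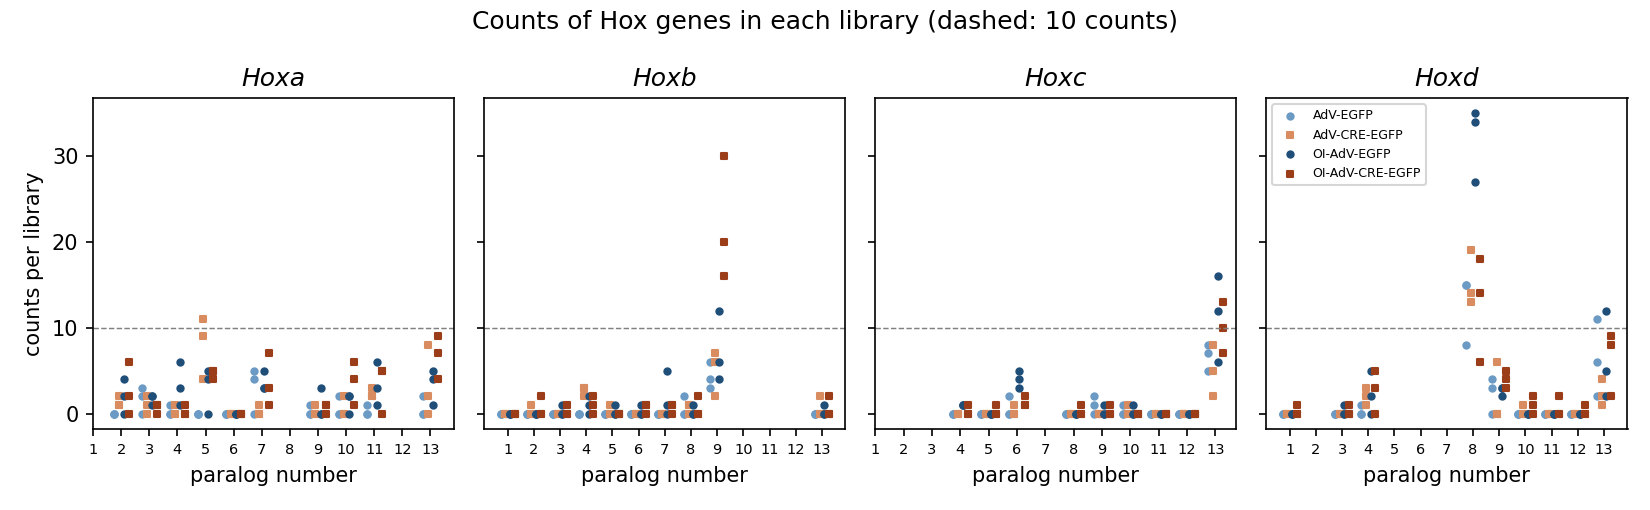
Counts in each of the 12 libraries (y axis, linear) for Hox genes of each cluster, ordered by paralog number (x axis), with the dashed line at 10 counts. 1 tested Hox gene is not plotted. The highest value plotted is 35 counts, for Hoxd8, and apart from Hoxd8, Hoxb9 and Hoxc13 no gene plotted goes above 12 counts.

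Osteogenic induction in AdV-EGFP cells asked which patterning genes move as condylar cells are driven towards bone. A gene was called at an adjusted p under 0.05 (edgeR) together with a log2 fold change of 1 or more in either direction, and fold changes are given below on the log2 scale with their standard error. Of the 50 tested members, 10 rose (among them Msx1, Alx4, Gsc, Pax9, Pax3, Irx1, Tshz2, Hoxd8 and Dlx4) and 2 fell (Tshz1 and Nkx6-1). The 12 called make 24% of the members, against 25.9% of all 13670 genes tested, and by direction 20% rose against 15.1% of all genes and 4% fell against 10.8%. At the adjusted p alone, 38 members passed, 21 upward and 17 downward, or 76% against 76.2% of all genes, of which 39.7% passed upward and 36.5% downward. The members' median log2 fold change was 0.16 and that of all genes 0.05. In share called, the members were thus close to the background.

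In AdV-CRE-EGFP cells the same induction called 2 members upward (among them Hoxb9) and 5 downward (Tshz1, Irx5, Pax1, Dlx3 and Nkx6-1). The 7 called make 14% of the members against 20.7% of all genes. By direction, 4% rose against 12% of all genes and 10% fell against 8.62%. At the adjusted p alone 34 members passed (68% against 71.2% of all genes), 14 upward and 20 downward, against 35.9% and 35.3% of all genes, and the median was -0.11 against 0.02.

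Cre before induction asked how the groups given Cre differed on day 0. It called 3 members, all higher: Nkx6-1, Dlx3 and Pax3. They make 6% of the members against 3.16% of all genes, and the share called higher in all genes was 2.60%. In all genes, 0.556% were called lower. At the adjusted p alone 12 members passed, 7 higher and 5 lower, or 24% against 29.3% of all genes.

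Cre after induction called Nkx6-1 and Hoxb9 higher and Hoxd8 lower. The 3 called make 6% of the members against 5.07% of all genes, with 4% higher against 2.46% and 2% lower against 2.61%. At the adjusted p alone 23 members passed (46% against 40.5% of all genes), and here the direction was uneven: 19 were lower and 4 higher, or 38% lower against 20.6% of all genes and 8% higher against 19.8%. The median was -0.22 against -0.01. Most of these shifts were short of a 2-fold change. The comparisons share libraries: each induced or day 0 group serves in 2 of them.

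**Figure D3:**
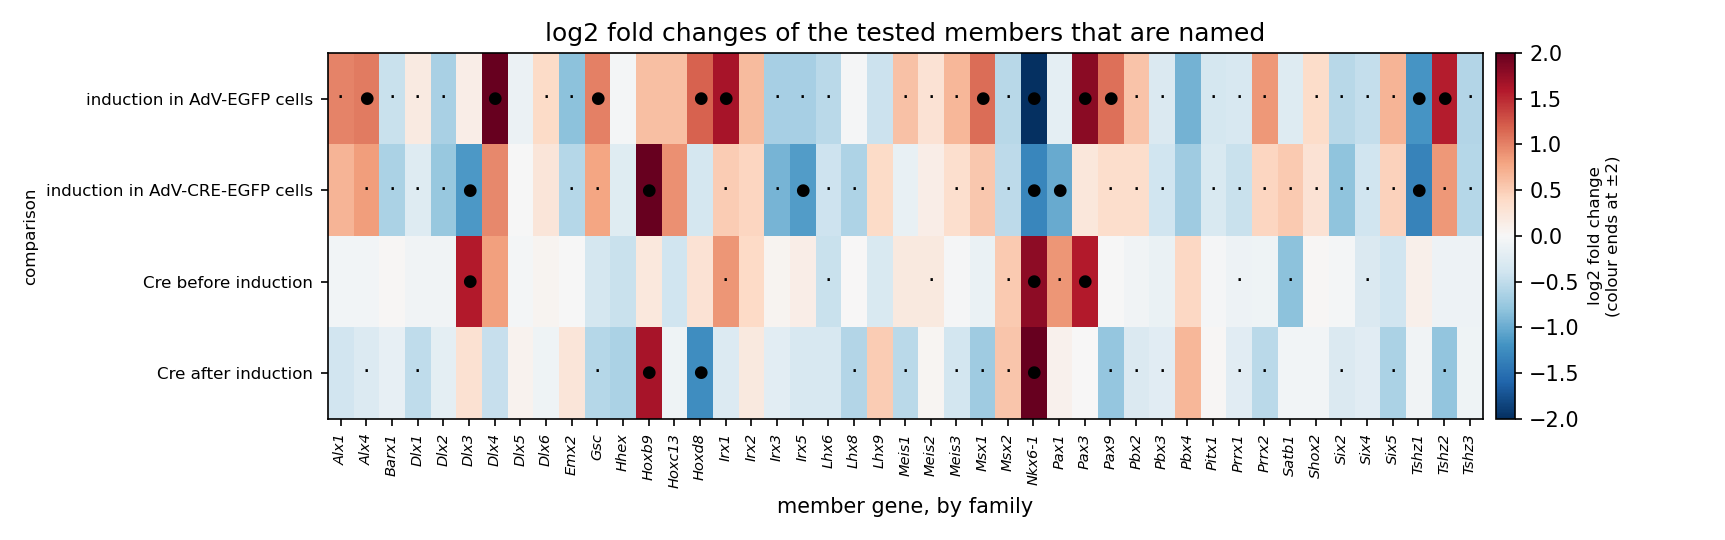
Log2 fold changes (colour, ending at ±2) of the 50 tested members, as far as named here (columns, by family), in the 4 comparisons (rows), where a large dot marks a called gene and a small dot a gene passing the adjusted p alone. Most large dots lie in the 2 induction comparisons, while each Cre comparison holds 3, for Nkx6-1, Dlx3 and Pax3 on day 0 and Nkx6-1, Hoxb9 and Hoxd8 after induction.

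Within the Dlx family, Dlx5, which with Dlx6 specifies the lower jaw, passed in no comparison. It stood at 25.7, 23.2 and 22.1 CPM in AdV-EGFP, 23.7, 22.4 and 23.3 in AdV-CRE-EGFP, 21.4, 23.4 and 20.6 in OI-AdV-EGFP and 22.9, 22.3 and 23.5 in OI-AdV-CRE-EGFP libraries. All 4 groups overlapped within a range of 20.6 to 25.7 CPM. The log2 fold change was -0.12 ± 0.08 with induction (adjusted p = 0.17) and 0.07 ± 0.08 for Cre after induction (adjusted p = 0.49). Dlx6, its neighbour on chromosome 6, passed only for induction without Cre, at 0.39 ± 0.13 (adjusted p = 0.011), and did not pass without OI-AdV-EGFP replicate 3 (0.26).

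Dlx1 and Dlx2, the pair expressed along the whole arch and needed for the upper jaw, differed from each other. Dlx1 stood at 24.1, 24.1 and 25.1 CPM in AdV-EGFP, 23.6, 22.2 and 23.8 in AdV-CRE-EGFP, 28.6, 28.2 and 26.3 in OI-AdV-EGFP and 19.6, 19.7 and 19.1 in OI-AdV-CRE-EGFP. The last group was the lowest and did not overlap with any other. Dlx1 was lower with Cre after induction, at -0.51 ± 0.07 (adjusted p = 2.7e-06). Dlx2 fell with induction in both backgrounds, at -0.64 ± 0.13 (adjusted p = 7.7e-05) and -0.76 ± 0.13 (adjusted p = 1.7e-05), and its adjusted p for Cre after induction was 0.28.

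Dlx3 and Dlx4, neighbours on chromosome 11, were the lowest of the family. Dlx3, a regulator of skin, tooth and bone differentiation, stood at 1.16, 0.830 and 0.803 CPM in AdV-EGFP, 2.80, 2.64 and 3.02 in AdV-CRE-EGFP, 0.823, 0.930 and 1.31 in OI-AdV-EGFP and 1.09, 1.23 and 1.49 in OI-AdV-CRE-EGFP. The AdV-CRE-EGFP libraries were alone at the top, and the other 3 groups overlapped. It was higher with Cre before induction by 1.59 ± 0.29 (adjusted p = 0.00016) and fell with induction in those cells, at -1.14 ± 0.28 (adjusted p = 0.0007). Dlx4 had 4, 3 and 3 counts in AdV-EGFP and 16, 23 and 15 in OI-AdV-EGFP libraries. It rose by 2.24 ± 0.53 (adjusted p = 0.00054) from a base near the limit of detection. No AdV-EGFP library reached the 10 counts of the filter. Dlx4 was thus tested through groups where it was higher, and part of a rise was built into its being tested.

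The Msx genes, which act downstream of BMP signalling in the jaw, teeth and skull, moved in opposite directions. Msx1 stood at 13.8, 16.3 and 14 CPM in AdV-EGFP, 14.2, 12.3 and 13.7 in AdV-CRE-EGFP, 30.2, 31.9 and 33.9 in OI-AdV-EGFP and 20.3, 17.9 and 20.5 in OI-AdV-CRE-EGFP. The OI-AdV-EGFP libraries were the highest, the OI-AdV-CRE-EGFP libraries came next, and the day 0 groups overlapped. Msx1 rose with induction by 1.12 ± 0.09 (adjusted p = 2.1e-11) without Cre and by 0.55 ± 0.09 (adjusted p = 1.4e-05) with Cre. After induction it was lower with Cre, at -0.71 ± 0.08 (adjusted p = 2.3e-07).

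Msx2 stood at 6.71, 6.70 and 6.42 CPM in AdV-EGFP, 8.52, 9.89 and 10.0 in AdV-CRE-EGFP, 4.05, 4.47 and 4.89 in OI-AdV-EGFP and 6.16, 6.72 and 6.98 in OI-AdV-CRE-EGFP. AdV-CRE-EGFP was the highest and OI-AdV-EGFP the lowest, with no overlap of either with another group. Msx2 fell with induction, at -0.56 ± 0.14 (adjusted p = 0.00087) and -0.52 ± 0.13 (adjusted p = 0.0009). It was higher with Cre by 0.52 ± 0.13 on day 0 (adjusted p = 0.0032) and by 0.56 ± 0.14 after induction (adjusted p = 0.0021).

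Among the Pax genes, 3 were expressed and each followed its own course. Pax9, which marks the mesenchyme of the jaw and teeth, stood at 13.8, 13.1 and 15.5 CPM in AdV-EGFP, 15.7, 13.1 and 13.2 in AdV-CRE-EGFP, 30.6, 32.7 and 28 in OI-AdV-EGFP and 16.3, 19.2 and 17.9 in OI-AdV-CRE-EGFP. The OI-AdV-EGFP libraries stood apart above all others. Pax9 rose with induction by 1.10 ± 0.09 (adjusted p = 1e-10) without Cre and by 0.34 ± 0.10 (adjusted p = 0.0035) with Cre, and was lower with Cre after induction, at -0.77 ± 0.09 (adjusted p = 1.9e-07).

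Pax3, expressed in neural crest and in muscle precursors, stood at 2.65, 1.40 and 2.04 CPM in AdV-EGFP, 5.42, 6.26 and 6.68 in AdV-CRE-EGFP, 7.64, 8.19 and 5.44 in OI-AdV-EGFP and 7.85, 6.41 and 7.16 in OI-AdV-CRE-EGFP. The AdV-EGFP libraries lay below all the rest, which overlapped. Pax3 rose with induction without Cre by 1.80 ± 0.21 (adjusted p = 2.4e-08) and was higher with Cre on day 0 by 1.59 ± 0.21 (adjusted p = 2.4e-06). Its adjusted p was 0.25 for induction with Cre and 0.96 for Cre after induction. The defining muscle genes Myod1, Myf5, Myog, Myf6 and Pax7 had at most 8 counts in any library. Besides Pax3, only Des and Actn2 of the muscle markers passed the filter. In the same order of groups, Des averaged 2.96, 4.61, 5.6 and 11.3 CPM and Actn2 1.42, 0.955, 0.423 and 0.665 CPM. The summed level of the 10 muscle markers, Pax3 among them, was 7.22 to 8.46 CPM in AdV-EGFP, 12.2 to 14.3 in AdV-CRE-EGFP, 13.1 to 15.6 in OI-AdV-EGFP and 18.1 to 22.5 in OI-AdV-CRE-EGFP, and their part in the Pax3 result was not tested.

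Pax1, a gene of the pharyngeal pouches and vertebral column, stood at 6.13, 5.94 and 5.19 CPM in AdV-EGFP, 11.5, 9.10 and 11.2 in AdV-CRE-EGFP, 4.76, 5.11 and 5.11 in OI-AdV-EGFP and 4.35, 5.80 and 5.78 in OI-AdV-CRE-EGFP. AdV-CRE-EGFP was alone at the top, above 9 CPM in each library. Pax1 was higher with Cre on day 0 by 0.89 ± 0.14 (adjusted p = 2.9e-05) and fell with induction in those cells, at -1.0 ± 0.14 (adjusted p = 9.4e-07). The latter lay at the fold required: it ran from -1.10 to -0.88 when 1 library was left out, and 6 of these 12 settings, each leaving out a day 0 library or OI-AdV-CRE-EGFP replicate 1, put it short of -1. This call was also lost under RLE scaling, without the count filter and under both limma settings on FPKM.

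The Alx and Prrx genes, paired-type homeobox genes of head and limb mesenchyme, split by member. Alx4, needed for skull and face closure, stood at 34.6, 34.4 and 34.8 CPM in AdV-EGFP, 32.8, 32.5 and 34.4 in AdV-CRE-EGFP, 70.3, 73.9 and 69.6 in OI-AdV-EGFP and 54.9, 58.8 and 63.4 in OI-AdV-CRE-EGFP. Both induced groups lay well above day 0, with OI-AdV-EGFP above OI-AdV-CRE-EGFP. Alx4 rose with induction by 1.04 ± 0.06 (adjusted p = 3.8e-14) and 0.83 ± 0.06 (adjusted p = 7.7e-12), and was lower with Cre after induction, at -0.27 ± 0.06 (adjusted p = 0.00036).

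Prrx1 fell with induction, at -0.32 ± 0.03 (adjusted p = 3e-09) and -0.45 ± 0.03 (adjusted p = 7.3e-12), while its paralog Prrx2 rose by 0.86 ± 0.09 (adjusted p = 4.5e-09) and 0.42 ± 0.09 (adjusted p = 0.00029). Prrx2 stood at 46.4, 53.3 and 45.6 CPM in AdV-EGFP, 53.5, 41.7 and 41 in AdV-CRE-EGFP, 82.7, 90.9 and 90.7 in OI-AdV-EGFP and 53.5, 58.9 and 70.4 in OI-AdV-CRE-EGFP, where OI-AdV-EGFP did not overlap with any other group. With Cre after induction both were lower, Prrx1 at -0.22 ± 0.03 (adjusted p = 4.3e-06) and Prrx2 at -0.53 ± 0.09 (adjusted p = 2.6e-05).

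Gsc, a paired-type gene of the distal arches and the ear, stood at 5.94, 3.90 and 5.50 CPM in AdV-EGFP, 4.87, 3.63 and 3.53 in AdV-CRE-EGFP, 11, 10.1 and 9.84 in OI-AdV-EGFP and 5.98, 6.66 and 8.11 in OI-AdV-CRE-EGFP. OI-AdV-EGFP was the highest group, and the day 0 groups overlapped. Gsc rose with induction by 1.01 ± 0.16 (adjusted p = 3.6e-06) without Cre, a value that went below 1 without AdV-EGFP replicate 2 (0.83), AdV-CRE-EGFP replicate 3 or OI-AdV-EGFP replicate 1. The call was also lost under DESeq2, RLE scaling, no count filter and limma on log2(FPKM + 1). With Cre after induction it was lower, at -0.57 ± 0.15 (adjusted p = 0.0037).

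The genes of the arch core and joint were steadier. Barx1 fell with induction, at -0.45 ± 0.07 (adjusted p = 7.1e-06) and -0.64 ± 0.08 (adjusted p = 5.7e-08), and Pitx1 at -0.35 ± 0.06 (adjusted p = 2e-05) and -0.31 ± 0.06 (adjusted p = 0.00014). Shox2 rose by 0.36 ± 0.06 (adjusted p = 7.4e-06) and 0.29 ± 0.06 (adjusted p = 0.00017). None of the 3 passed in either Cre comparison, with adjusted p of 0.1, 0.84 and 0.46 after induction.

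Lhx8, which with Lhx6 marks the oral side of the arch mesenchyme, stood at 16.3, 16.5 and 19.3 CPM in AdV-EGFP, 16.9, 17.3 and 18.1 in AdV-CRE-EGFP, 16.4, 17.6 and 17.1 in OI-AdV-EGFP and 11.9, 10.7 and 11.5 in OI-AdV-CRE-EGFP. Here the last group was the lowest and the other 3 overlapped. Lhx8 fell with induction in the Cre group, at -0.61 ± 0.09 (adjusted p = 2.9e-06) and was lower with Cre after induction, at -0.58 ± 0.09 (adjusted p = 1.9e-05).

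The Irx genes, a family whose proteins carry alanine at the residue shown above, diverged. Irx1 stood at 2.84, 2.94 and 2.41 CPM in AdV-EGFP, 4.81, 4.81 and 5.46 in AdV-CRE-EGFP, 8.46, 8.43 and 8.81 in OI-AdV-EGFP and 6.52, 6.60 and 8.23 in OI-AdV-CRE-EGFP. Day 0 libraries without Cre were the lowest and OI-AdV-EGFP libraries the highest, with no overlap between any of the groups. Irx1 rose with induction by 1.65 ± 0.16 (adjusted p = 7.1e-10) without Cre and by 0.50 ± 0.14 (adjusted p = 0.0034) with Cre. On day 0 it was higher with Cre by 0.88 ± 0.17 (adjusted p = 0.00026). After induction the Cre comparison did not pass for Irx1, at -0.27 ± 0.13 (adjusted p = 0.11). Irx3 and Irx5, neighbours on chromosome 8, fell with induction: Irx5 at -0.67 ± 0.13 (adjusted p = 5.8e-05) without Cre and at -1.12 ± 0.13 (adjusted p = 5.4e-08) with Cre, and Irx3 at -0.67 ± 0.09 and -0.92 ± 0.09 (adjusted p = 3.7e-07 and 2.7e-09). The larger fall of Irx5 was at -0.997, just short of the fold required, without OI-AdV-CRE-EGFP replicate 2.

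The Tshz genes, zinc-finger homeobox genes of trunk and branchial patterning, moved in opposite directions. Tshz1, needed for the soft palate and middle ear, stood at 54.6, 60.0 and 53 CPM in AdV-EGFP, 60.8, 59.8 and 58.8 in AdV-CRE-EGFP, 22.7, 27.3 and 24 in OI-AdV-EGFP and 24.2, 22.5 and 24.1 in OI-AdV-CRE-EGFP. The day 0 libraries lay at 53 CPM or above and the induced libraries below 28. Tshz1 fell, at -1.18 ± 0.07 (adjusted p = 6.2e-14) and -1.34 ± 0.07 (adjusted p = 8.2e-15), and was the member with the smallest p for induction in the Cre groups. Tshz3 also fell, at -0.58 ± 0.10 (adjusted p = 2e-05) and -0.57 ± 0.11 (adjusted p = 4e-05).

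Tshz2 stood at 5.10, 4.85 and 6.05 CPM in AdV-EGFP, 4.69, 6.20 and 4.11 in AdV-CRE-EGFP, 15.2, 15.9 and 16.5 in OI-AdV-EGFP and 8.69, 10.2 and 8.59 in OI-AdV-CRE-EGFP. OI-AdV-EGFP was the highest, OI-AdV-CRE-EGFP came next, and the day 0 groups overlapped. Tshz2 rose with induction by 1.57 ± 0.13 (adjusted p = 1e-10) and 0.87 ± 0.14 (adjusted p = 8e-06) and was lower with Cre after induction, at -0.80 ± 0.12 (adjusted p = 1.1e-05).

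Nkx6-1, known for its work in pancreatic beta cells and the ventral neural tube, was the only member called in all 4 comparisons. It had 17, 13 and 13 counts in AdV-EGFP, 56, 42 and 51 in AdV-CRE-EGFP, 2, 1 and 4 in OI-AdV-EGFP and 24, 14 and 25 in OI-AdV-CRE-EGFP libraries. The AdV-CRE-EGFP group was the highest and OI-AdV-EGFP close to 0, and neither overlapped with another group. Nkx6-1 fell with induction, at -2.71 ± 0.52 (adjusted p = 4.9e-05) and -1.31 ± 0.29 (adjusted p = 0.00033). It was higher with Cre by 1.79 ± 0.31 on day 0 (adjusted p = 8.3e-05) and by 3.18 ± 0.48 after induction (adjusted p = 9.3e-06). The 1 to 4 counts per OI-AdV-EGFP library leave the size of the last value uncertain, from 2.85 to 3.74 as 1 library was left out, and the gene's level stayed below 1 FPKM in every group mean.

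Pbx and Meis proteins belong to the TALE class and form complexes with Hox and other homeodomain proteins on DNA. Pbx3 fell with induction, at -0.29 ± 0.09 (adjusted p = 0.0043) and -0.40 ± 0.09 (adjusted p = 0.00045), while Pbx2 rose by 0.57 ± 0.07 (adjusted p = 2e-07) and 0.35 ± 0.08 (adjusted p = 0.00024). With Cre after induction Pbx2 was lower, at -0.29 ± 0.07 (adjusted p = 0.0025).

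Meis3 rose with induction by 0.67 ± 0.10 (adjusted p = 1.9e-06) without Cre and 0.33 ± 0.10 (adjusted p = 0.0069) with Cre. Meis1 stood at 5.42, 6 and 4.57 CPM in AdV-EGFP, 5.17, 7.45 and 5.72 in AdV-CRE-EGFP, 7.99, 8.08 and 7.99 in OI-AdV-EGFP and 5.80, 6.17 and 4.53 in OI-AdV-CRE-EGFP. The OI-AdV-EGFP libraries were the highest and the others overlapped. Meis1 rose with induction without Cre by 0.59 ± 0.16 (adjusted p = 0.0015) and was lower with Cre after induction, at -0.55 ± 0.15 (adjusted p = 0.0064). Meis2 rose with induction without Cre by 0.29 ± 0.07 (adjusted p = 0.00033).

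Hoxd8, a gene of the middle of the HoxD cluster, had 15, 8 and 15 counts in AdV-EGFP, 13, 19 and 14 in AdV-CRE-EGFP, 34, 35 and 27 in OI-AdV-EGFP and 18, 14 and 6 in OI-AdV-CRE-EGFP libraries. The OI-AdV-EGFP group lay above the other 3, which overlapped. It rose with induction without Cre by 1.18 ± 0.37 (adjusted p = 0.0059; 0.93 without AdV-EGFP replicate 2, short of the fold required). It was lower with Cre after induction, at -1.24 ± 0.37 (adjusted p = 0.0089), and this call was lost without OI-AdV-CRE-EGFP replicate 3 (-0.90).

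Hoxb9, a trunk Hox gene, had 6, 4 and 3 counts in AdV-EGFP, 6, 7 and 2 in AdV-CRE-EGFP, 12, 6 and 4 in OI-AdV-EGFP and 20, 16 and 30 in OI-AdV-CRE-EGFP libraries. Only the OI-AdV-CRE-EGFP group lay over the filter, so a difference was built into its being tested. Its log2 fold changes were 2.04 ± 0.49 for induction with Cre (adjusted p = 0.00073) and 1.65 ± 0.46 for Cre after induction (adjusted p = 0.0055). Hoxc13, the most posterior of these genes by cluster position, had 2 to 16 counts per library and passed no test.

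Satb1, a chromatin organizer, stood at 5.04, 4.41 and 3.89 CPM in AdV-EGFP, 2.62, 2.31 and 2.57 in AdV-CRE-EGFP, 3.82, 4.01 and 3.32 in OI-AdV-EGFP and 4.29, 2.96 and 3.52 in OI-AdV-CRE-EGFP. AdV-CRE-EGFP was the lowest group. Satb1 was lower with Cre on day 0, at -0.83 ± 0.20 (adjusted p = 0.0023) and rose with induction in those cells by 0.52 ± 0.20 (adjusted p = 0.024), the latter not passing without AdV-CRE-EGFP replicate 2 or OI-AdV-CRE-EGFP replicate 1.

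The interaction asked whether induction changed a gene by a different amount in the Cre groups. A negative value is a smaller rise, a larger fall or a fall in place of a rise with Cre. At an adjusted p under 0.05, 16 members passed, 15 with a negative value and 1 (Satb1) with a positive value. They make 32% of the members against 22.8% of all genes, with 30% lower against 12.1% and 2% higher against 10.7%, and the median was -0.20 against -0.01. Among the genes with a negative value were Pax9, Pax3, Pax1, Msx1, Dlx1, Dlx3, Irx1, Lhx8, Tshz2, Meis1, Prrx1, Prrx2 and Hoxd8. For Pax9, Msx1, Tshz2 and Prrx2 this was a smaller rise. Prrx1 fell more with Cre (-0.45 against -0.32), and Lhx8 fell with Cre alone (-0.61 against -0.03). Dlx1 rose without Cre (0.18) and fell with it (-0.25). Meis1 and Hoxd8 rose without Cre, and their changes with Cre did not pass (-0.15 and -0.35). Irx1 also rose less with Cre, but from a raised day 0 level, and for Pax1 and Dlx3 the fall took place in the Cre group from such a level. For Pax3 the 2 induced groups had like levels, 7.09 ± 1.46 and 7.14 ± 0.718 CPM, and the day 0 groups differed. Of the 12 settings that left out 1 library each, Tshz2 lost the call in 1 (AdV-CRE-EGFP replicate 2), Prrx2 in 2 (AdV-EGFP replicate 3 and AdV-CRE-EGFP replicate 1) and Meis1 in 3 (AdV-EGFP replicate 3, AdV-CRE-EGFP replicate 2 and OI-AdV-CRE-EGFP replicate 3). Dlx3 lost it in 6, Satb1 in 8 and Prrx1 and Hoxd8 in 9 each.

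**Figure D4:**
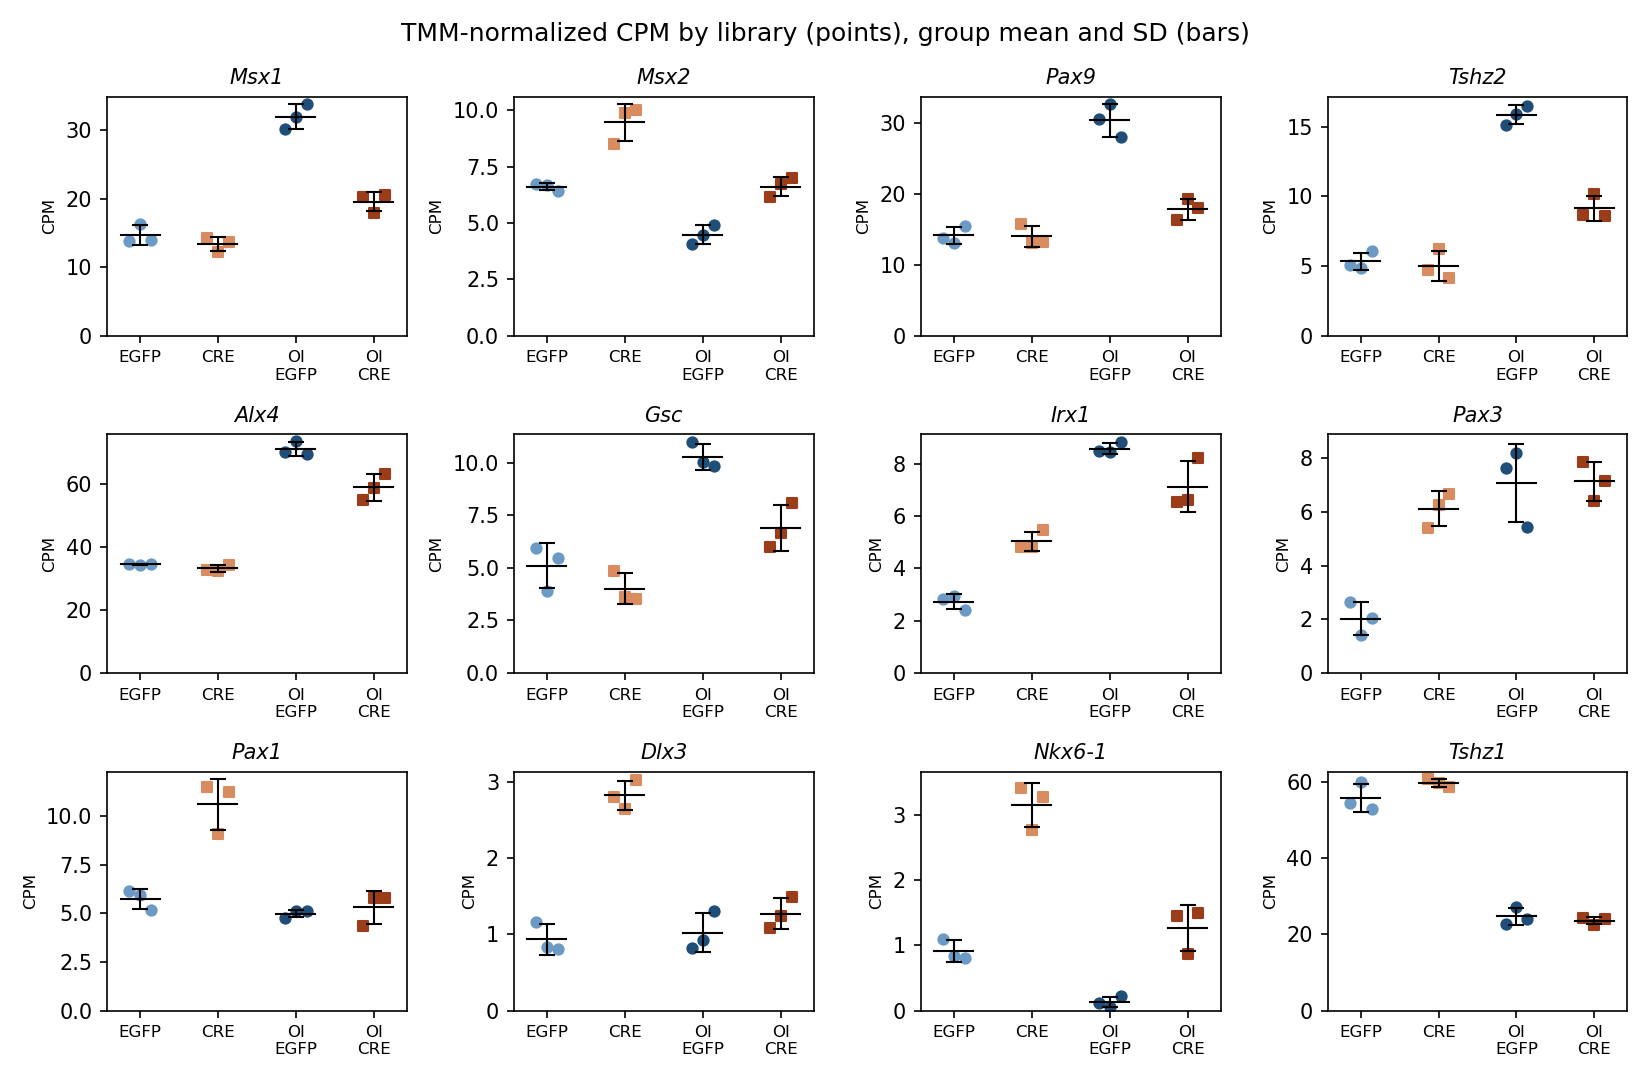
TMM-normalized CPM (linear axes from 0) of 12 members in each library, with the 3 libraries of a group as points and the group mean and SD as bars. Msx1, Pax9 and Tshz2 are highest in OI-AdV-EGFP, Pax1, Dlx3 and Nkx6-1 are highest in AdV-CRE-EGFP, and Tshz1 is low in both induced groups.

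The remaining tested members passed only short of a 2-fold change or not at all. Alx1, with a role in the midface, rose with induction by 0.99 ± 0.32 (adjusted p = 0.0077), just under the fold required. Emx2 fell with induction, at -0.82 ± 0.15 (adjusted p = 3.8e-05) and -0.58 ± 0.15 (adjusted p = 0.0015), as did Six2, at -0.56 ± 0.10 and -0.80 ± 0.10 (adjusted p = 1.6e-05 and 1.6e-07), and Six4, at -0.47 ± 0.11 and -0.40 ± 0.11 (adjusted p = 0.00031 and 0.0027). Six5 rose with induction by 0.68 ± 0.14 (adjusted p = 0.00012) without Cre and by 0.46 ± 0.16 (adjusted p = 0.011) with Cre. The latter did not pass without AdV-CRE-EGFP replicate 3. After induction Six5 was lower with Cre, at -0.63 ± 0.14 (adjusted p = 0.00076). Lhx6 fell with induction, at -0.54 ± 0.14 (adjusted p = 0.001) and -0.42 ± 0.15 (adjusted p = 0.015). The latter did not pass without AdV-CRE-EGFP replicate 3 or OI-AdV-CRE-EGFP replicate 3. On day 0 Lhx6 was lower with Cre, at -0.45 ± 0.14 (adjusted p = 0.015), a result lost without AdV-EGFP replicate 3 or AdV-CRE-EGFP replicate 1. Irx2, Lhx9, Pbx4 and Hhex passed in no comparison.

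Other regulators of the face and neural crest, a list of 54 genes of which 43 were tested, were read beside the members. With induction in AdV-EGFP cells 7 of the 43 were called upward and 7 downward, where 15.1% and 10.8% of all genes were. In AdV-CRE-EGFP cells 2 of the 43 were called upward and 10 downward, where 12% and 8.62% of all genes were. Those that rose without Cre included Ednra, the endothelin receptor of the arch mesenchyme, by 2.17 ± 0.13 (adjusted p = 5.6e-14), Osr2 by 1.68 ± 0.21 (adjusted p = 1.1e-07) and Hand2, the distal jaw regulator downstream of endothelin, by 1.53 ± 0.13 (adjusted p = 1.9e-10). Aldh1a3, an enzyme of retinoic acid synthesis, fell by 1.61 on the log2 scale (adjusted p = 1.2e-08), Ets1 by 1.58 (adjusted p = 1e-16) and Ednrb, the other endothelin receptor, by 1.37 (adjusted p = 4e-06).

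With Cre after induction 1 of the 43 tested genes of this list was higher and 4 were lower, where 2.46% and 2.61% of all genes were. Ednra averaged 38.2 CPM in OI-AdV-EGFP against 11.6 in OI-AdV-CRE-EGFP (means, n = 3), a log2 fold change of -1.72 ± 0.12 (adjusted p = 1.9e-11). Ednrb stood at 1.59 and 4.61 CPM, a log2 fold change of 1.53 ± 0.21 (adjusted p = 2.6e-06). Aldh1a2, the main retinoic acid synthase of embryos, was lower by 1.47 ± 0.21 (adjusted p = 3.5e-06), Osr2 by 1.22 ± 0.20 (adjusted p = 2.3e-05) and Tfap2b, a neural crest factor, by 1.04 ± 0.13 (adjusted p = 5.5e-07). On day 0 Gata3 was the only gene of the list called (3.16% of all genes were), at 1.37 ± 0.49 (adjusted p = 0.036). It had 10 to 19 counts per AdV-CRE-EGFP library, with a mean of 0.997 CPM. In each of the other groups its mean lay below the filter of 0.606 CPM, and no library had more than 11 counts. Gata3 was thus tested through the group where it was higher, and part of this difference was built into its being tested. The interaction passed for 3 of the 43 upward and 13 downward, where it did so for 10.7% and 12.1% of all genes. Its median over the list was -0.27, against -0.01 for all genes.

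Partners and chromatin regulators of Hox genes formed a list of 33 genes, with 28 listed in the table and 26 tested. With induction in AdV-EGFP cells 2 of the 26 rose and 5 fell, beside 15.1% and 10.8% of all genes, and in AdV-CRE-EGFP cells 1 rose and 4 fell, beside 12% and 8.62%. The Polycomb methyltransferase genes moved apart: Ezh2 fell by 1.55 on the log2 scale (adjusted p = 6e-14) and Ezh1 rose by 1.92 ± 0.07 (adjusted p = 1.2e-17) without Cre. Suz12, a subunit of the same complex, fell by 1.20 (adjusted p = 8.1e-15), Phc2 by 1.43 (adjusted p = 3.1e-18) and the TALE gene Tgif1 by 1.99 (adjusted p = 6.3e-19). In the Cre comparisons 7 genes after induction and 6 on day 0 of the 26 passed the adjusted p alone, each short of the fold required, while 40.5% and 29.3% of all genes passed it.

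Genes of trunk and limb position formed a list of 11, with 10 listed in the table and 6 tested. Tbx5, Tbx6, Foxb1 and Mnx1 had at most 4 counts in any library. Of the 6 tested, 4 rose with induction in AdV-EGFP cells and 3 in AdV-CRE-EGFP cells, beside 15.1% and 12% of all genes. Cyp26b1, an enzyme that breaks down retinoic acid, averaged 6.52, 6.06, 52.7 and 75.3 CPM (AdV-EGFP and AdV-CRE-EGFP, then the same after induction), and rose by 3.01 ± 0.10 on the log2 scale without Cre (adjusted p = 4.3e-19) and by 3.63 ± 0.10 with Cre (adjusted p = 1.4e-20). Fgf10, a growth factor of limb and other buds, averaged 7.29, 9.74, 44.3 and 30.5 CPM and rose by 2.60 ± 0.09 (adjusted p = 2.2e-18) and 1.65 ± 0.09 (adjusted p = 3e-14). Hand2, named above, rose in both backgrounds, and Osr1 passed the fold required without Cre alone, at 1.04 ± 0.07 (adjusted p = 6.8e-13) against 0.90 ± 0.07 with Cre (adjusted p = 5.4e-11). Hand2 and Osr1 are also on the craniofacial list.

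Markers of other cells were read beside these results. Epcam, the defining epithelial gene, had at most 4 counts in any library, yet Krt18 stood at 0.402 and 0.206 CPM in the EGFP groups and at 7.27 and 5.25 CPM in the Cre groups, before and after induction. The summed level of 8 epithelial markers was 1.55 to 4.26 CPM in AdV-EGFP, 8.37 to 9.25 in AdV-CRE-EGFP, 6.25 to 7.70 in OI-AdV-EGFP and 9.90 to 10.2 in OI-AdV-CRE-EGFP. Besides Krt18, only Trp63 and Cdh1 of these markers passed the filter. In the same order of groups, Trp63 averaged 0.355, 0.362, 4.81 and 3.58 CPM and Cdh1 0.674, 0.725, 1.78 and 1.11 CPM. With induction in AdV-EGFP cells 2 of the 3 tested were called higher, where 15.1% of all genes were. The 8 endothelial markers, of which 6 were tested, summed to 5.68 to 9.90, 21.1 to 27.0, 13.5 to 16.4 and 34.2 to 37.1 CPM in the order of the groups above. With Cre on day 0, 3 of the 6 were called higher (2.60% of all genes were): Kdr at 2.59 ± 0.19 (adjusted p = 1.1e-10), Cdh5 at 2.41 ± 0.37 (adjusted p = 1.6e-05) and Vwf at 1.37 ± 0.27 (adjusted p = 0.00035). After induction Kdr and Vwf were called higher with Cre. Kdr made up 2.41, 14.5, 11.8 and 30.7 CPM of the sums, and Tie1 had at most 4 counts in any library. The summed level of 8 macrophage and osteoclast markers, all detected, was 402 to 420 CPM in AdV-EGFP to 817 to 887 in AdV-CRE-EGFP, 854 to 879 in OI-AdV-EGFP and 1327 to 1378 in OI-AdV-CRE-EGFP, of which Ctsk made the larger part in the Cre groups. The 7 osteoblast markers, whose libraries spread widely, summed to 56.0 to 113 CPM in AdV-EGFP, 57.2 to 96.3 in AdV-CRE-EGFP, 150 to 379 in OI-AdV-EGFP and 39.1 to 43.5 in OI-AdV-CRE-EGFP. Ibsp made the larger part in OI-AdV-EGFP, at 220 ± 120 CPM, against 4.49 ± 1.09 in OI-AdV-CRE-EGFP. Runx2 averaged 45.4, 49.1, 41.3 and 29.7 CPM in the order of the groups. With Cre after induction 6 of the 7 were called lower, where 2.61% of all genes were. The interaction passed for 6 of the 7 downward, where it did so for 12.1% of all genes. Schwann and glia markers, 6 genes, summed to 4.58 to 6.05, 5.14 to 6.45, 25.9 to 27.2 and 16.1 to 18.7 CPM in the same order. The 5 neuron markers summed to 3.83 to 5.16, 2.74 to 2.84, 16.9 to 19.3 and 15.1 to 20.1 CPM. The 3 tested (Snap25, Syp and Stmn2) were called higher with induction in both backgrounds, where 15.1% and 12% of all genes were. Snap25 and Syp had at most 4 counts in any day 0 library. They passed the filter through induced libraries, so a rise was built into their being tested. Their OI-AdV-CRE-EGFP libraries ran from 3 to 43 counts for Snap25 and from 2 to 17 for Syp. The 8 chondrocyte markers summed to 53.1 to 59.7, 64.1 to 66.6, 101 to 113 and 70.5 to 72.5 CPM. Of their 6 tested genes Acan, Matn3 and Col10a1 were called lower and Comp higher with induction in both backgrounds, and Comp was lower with Cre after induction, at -1.56 ± 0.10 (adjusted p = 4.8e-12). The 5 mural markers summed to 317 to 347, 333 to 359, 209 to 231 and 239 to 250 CPM, and the 4 tendon markers to 42.5 to 47.9, 50.2 to 53.6, 37.1 to 55.6 and 27.9 to 33.4 CPM. The 6 B cell and blood markers were all under the filter, with sums of at most 0.852 CPM. These levels moved with the groups compared, and their part in the changes of the members was not tested.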

How the data were processed

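Libraries of total RNA were made with the NEBNext Ultra II kit and sequenced on a NovaSeq instrument. Per the submitters' processing notes the authors trimmed reads with cutadapt, aligned them with HISAT2 to GRCm39 and counted them with HTSeq. The annotation release and strand setting are not stated in the sources used here, and reads of overlapping and antisense genes may be shared between them. The authors deposited an estimated count and an FPKM value for each gene and library in 1 table. The deposited counts were not whole in 1646 to 1844 genes per library, for which no reason was given, and were rounded. Every value column was mapped to a library and 0 were left out.

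Genes were kept by edgeR's filterByExpr (minimum count 10, or 0.606 CPM), leaving 13670. Counts of all 12 libraries were scaled by TMM and fitted with 4 group means by edgeR 4.0.16's quasi-likelihood test in R 4.3.3, with Benjamini-Hochberg adjustment over all genes tested. The common biological coefficient of variation was 0.0472. Libraries of a group differed by a chi-square of 2.15 to 5.12 per gene, more than sampling noise. The procedure was tested on simulated data. Alternatives were DESeq2 1.42.0, RLE scaling, no filter, limma 3.58.1 on log2(FPKM + 1) and log2(FPKM + 0.1), a replicate block and leaving out each library. The deposited FPKM values were used for levels between genes.

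The members and gene lists were chosen with earlier results of these data known. Named with values were the members called in any comparison or interaction, the 15 of highest mean FPKM, tested Hox genes, Dlx and Msx genes, called list genes (up to 6 a list by size of change) and Plagl1. Other members were named after their values were seen. Coding sequences were read from GENCODE annotation of GRCm39, and promoter windows from RefSeq on GRCm38.p6. Some members are counted but not reported here by name.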

Additional observations from a re-analysis of the deposited data

Results flagged for a closer look

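A difference between the response to induction with and without Cre, tested as an interaction in edgeR, marked the members named here for a closer look. Each value is the log2 change with induction in the Cre groups minus that in the EGFP groups. The largest of these were Pax3 at -1.57, Hoxd8 at -1.53, Dlx3 at -1.28 and Irx1 at -1.15. Pax1 followed at -0.80, Pax9 at -0.76, Meis1 at -0.74, Tshz2 at -0.70, Lhx8 at -0.58, Msx1 at -0.58, Prrx2 at -0.44, Dlx1 at -0.43 and Prrx1 at -0.13. Satb1 at 0.78 was the only one of them with a positive value. Groups of 3 libraries are too small for a test of single libraries that stand apart, and none was run.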

How the results depend on the processing

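The members called numbered 12, 7, 3 and 3 for induction without Cre, induction with Cre, Cre after and Cre before induction, and 16 for the interaction. Under limma on log2(FPKM + 1) the counts were 4, 1, 0 and 0, and under log2(FPKM + 0.1) 9 members passed the interaction, all among the 16. The added 1 shrinks changes by construction, most strongly for genes near or under 1 FPKM. The calls lost for induction without Cre also took in Alx4, Gsc and Pax9, with mean FPKM of 9.36, 5.21 and 4.58. Leaving out 1 library gave 10 to 13, 6 to 8, 2 to 3, 3 to 3 and 11 to 14, of which at least 9, 6, 2, 3 and 11 were the same members. Of the results for single members, 102 kept their direction and side of the threshold under DESeq2 and 10 no longer passed, against 107 and 5 under RLE scaling and 106 and 6 without the filter. RLE in place of TMM moved the median of all genes by at most 0.02.

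Replicate numbers are shared by the groups, but same-numbered libraries did not deviate together (r across genes from -0.05 to 0.04, against -0.05 to 0.07 for other pairs), and 1 of 12 libraries correlated best with its own number. With a replicate block 110 of these results were kept, and 2, the interactions of Prrx1 and Hoxd8, no longer passed. Depth limits the Hox genes, Dlx4 and Nkx6-1, which had few counts in at least 1 group.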
